A study of Arabidopsis thaliana with 3 samples.

Results

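The mRNAs described here encode the proteins of the small (40S) subunit of the cytosolic ribosome of *Arabidopsis thaliana*. They were chosen by function, as 59 gene identifiers (AGIs) of the 40S ribosomal proteins, by a rule that uses no measured value. All 59 were found among the 16577 loci with a read, and they fall into 25 protein families named SA, S2 to S21 (with S3a and S15a beside S3 and S15; no S22), S23 and S24. A set of 38 other 40S genes was kept apart, so a family here may lack some of its paralogs. The family names are those of the gene list used here, and they were not compared with the product names of the annotation. The study sequenced the 3′ ends of mRNAs of wild-type Col-0 flowers (flower buds in the study's methods), grown on soil under long days, in 3 biological replicates and with no treatment or mutant. TAIL-seq is a method in which a 3′ adapter is ligated to the RNA, so that 1 read of a pair names the mRNA and the other reads through the poly(A) tail and any nucleotide added after it. With 1 group of 3 libraries, the comparisons are between the 40S mRNAs and all other mRNAs of the same libraries, and between paralogs.

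The 40S subunit binds the mRNA and the initiator tRNA, scans to the start codon and houses the decoding centre, in which codon and anticodon are matched. Plants keep several expressed gene copies for nearly every ribosomal protein, so most families here have paralogs that encode near-identical proteins. The poly(A) tail of a cytosolic mRNA is shortened over its life by deadenylases, and terminal uridylyltransferases, in Arabidopsis mainly URT1, add uridines to short tails. The study found that terminal uridines slow the deadenylase CAF1b in vitro, and that more uridylated mRNAs have shorter half-lives. It states that a causal link between uridylation and decay is still to be shown in Arabidopsis.

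The 3 libraries held 222681, 113458 and 106777 reads in replicates 1, 2 and 3. Replicate 1 came from another sequencing run than replicates 2 and 3, as the read names show. The 22 mRNAs that the study also followed by 3′RACE-seq, none of them a 40S member, took 1.53%, 29.2% and 23.1% of the reads of replicates 1, 2 and 3, and values without them are given where they matter. The flower markers AP1, AP3, PI, SEP1, SEP2 and SEP3 had reads in 3 of 3 libraries, and AGAMOUS had 7, 1 and 0 reads. The 40S members took 8216, 3331 and 3465 reads, which is 3.69%, 2.94% and 3.25% of the libraries, or 3.74%, 4.14% and 4.22% once the 22 mRNAs were left out. Reads were detected for 59, 57 and 56 of the 59 members. Pooled over libraries, a member had from 2 to 1549 reads with a median of 128, counting a read assigned to several genes for each of them. The minimum of 20 reads was met by 53 members. The 6 members with most reads held 36.3% of the 15547 read assignments.

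The tails themselves are short, and the 40S mRNAs carried mostly single added uridines. The commonest tails of the members are printed 5′ to 3′, As in lower case and added Us in capitals, because they show where along the tail the uridines sit. The first is the most frequent tail with nothing added (893 reads), and the next 3 are the most frequent uridylated ones (97, 60 and 57 reads).
plain tail: aaaaaaaaaaaaaaaaaaa
uridylated tail, 16 As: aaaaaaaaaaaaaaaaU
uridylated tail, 17 As: aaaaaaaaaaaaaaaaaU
uridylated tail, 15 As: aaaaaaaaaaaaaaaU
These are only the most frequent tails. Over all member tails, the median in replicates 1, 2 and 3 was 25, 22 and 22 As in plain tails. In uridylated member tails it was 16 As in each library.
No member tail carried more than 3 Us, and 5 reads had that number. Each of these 5 came from another gene, namely 1 read of RPS5B in replicate 1 and 1 read each of S4, S15a, S16 and S19 genes in replicate 3.
RPS5B (AT2G37270), replicate 1: aaaaaaaaaUUU
S19 (AT5G15520), replicate 3: aaaaaaaaaaUUU
S4 (AT5G07090), replicate 3: aaaaaaaaaaaUUU
S16 (AT5G18380), replicate 3: aaaaaaaaaaaaaaUUU
S15a (AT1G07770), replicate 3: aaaaaaaaaaaaaaaaaUUU
The As of these tails ranged from 9 to 17.

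Taken as a group, the 40S mRNAs were less uridylated than the rest of the transcriptome. In the 40S members, 3.53%, 5.10% and 6.52% of the reads of replicates 1, 2 and 3 carried an added U, against 7.56%, 10.1% and 11.8% in all other mRNAs. The means were 5.05% ± 1.5 in the members and 9.82% ± 2.13 in all other mRNAs (SD, n = 3 libraries each). The difference, members minus all other mRNAs, was −4.03, −5.0 and −5.27 percentage points, so it had the same sign in 3 of 3 libraries and varied less between them (SD 0.654) than either percentage did. An exact test over 3 paired libraries cannot give a p below 0.25, and no p is given for the group. With the 22 3′RACE-seq mRNAs left out of the rest, the mean difference was −5.46 points. With every member of at least 20 pooled reads weighted equally within each library, the members' mean was 6.78% and the difference −4.93 points. Some members had few reads in a library, such as AT5G39850, which entered replicate 3 at 100% on 1 read. The median of the pooled percentages was 4.27% over these 53 members and 8% over all mRNAs tested. Tails with an added G or C were rarer still, at 0.548%, 0.420% and 0.635% in the members and 0.618%, 0.951% and 0.851% in all other mRNAs.

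In the pooled libraries, the members were below the rest in each class of tail length above 9 As. Uridylation depends on tail length, so reads were sorted into 8 classes by the number of As. Among tails of 10 to 12 As, 23.5% of the members' reads were uridylated (95% Wilson interval 19.2 to 28.4%, 328 reads), against 36.3% of the reads of all other mRNAs (35.6 to 37.1%). In replicates 1, 2 and 3 the values were 17.8%, 27% and 32.5% in the members, against 40.3%, 33.6% and 34.3% in all other mRNAs, so the gap lay mostly in replicate 1. Without replicate 1 it was 29.9% (23.2 to 37.5%) in the members against 34% (33.1 to 34.9%) in all other mRNAs, and the intervals overlapped. For 16 to 18 As the percentages were 8.46% (7.45 to 9.59%) in the members and 14.8% in all other mRNAs, and for 19 to 21 As 2.39% (1.86 to 3.07%) and 6.82%. Thus the percentage dropped between the classes of 13 to 15 and 19 to 21 As in both sets, and the members were below the rest in each of these classes. Above 35 As, 0.924% of the members' reads (0.611 to 1.39%) and 1.53% of those of all other mRNAs had a U, with overlapping intervals once replicate 1 was left out (0.292 to 1.91% in the members, 1.52 to 1.84% in all other mRNAs). In the shortest class, 6 to 9 As, the members' interval of 15 to 27.3% (34 of 166 reads) overlapped that of all other mRNAs, 26.9 to 28.6%. The members were still below the rest there in 3 of 3 libraries. Without the 22 3′RACE-seq mRNAs, the rest stood at 32.3%, 28.9% and 32.6% in this class in replicates 1, 2 and 3. Each of these percentages lay above the members' pooled interval, although no pooled interval of the rest was computed for that setting. These intervals cover counting error only. Within single libraries, the members' oligo(A) tails of 10 to 25 As were uridylated at 5.52%, 6.85% and 8.73%, against 12.6%, 13.9% and 16.3% in all other mRNAs, and neither set's values reached the other's. The uridylated tails had a median of 16 As in the members in each library and of 15 As in all other mRNAs.

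**Figure D1:**
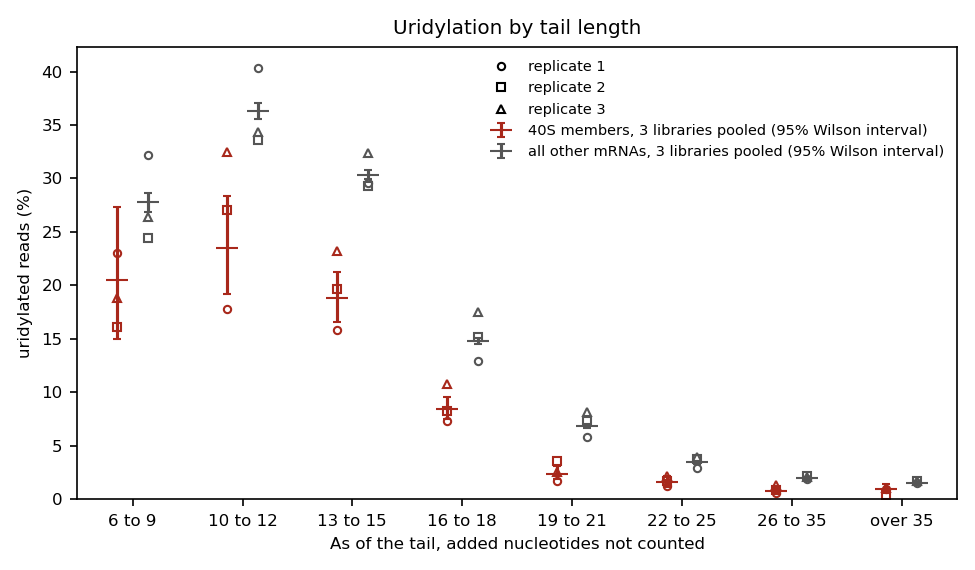
Percentage of uridylated reads (y axis) in 8 classes of tail length in As (x axis), for the 40S members (red, left) and all other mRNAs (grey, right). Bars are the 3 libraries pooled with the 95% Wilson interval and open symbols are single libraries. The members lie below the rest from 10 As upwards, for example 8.46% against 14.8% at 16 to 18 As, and least clearly at 10 to 12 As in replicate 3 (32.5% against 34.3%).

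The uridine stretches of the 40S mRNAs were also shorter. Of the uridylated tails, 82.4%, 80% and 85.0% had a single U in the members, against 68.0%, 63.0% and 61.6% in all other mRNAs. Without the 22 3′RACE-seq mRNAs the rest stood at 68.0%, 69.2% and 66.2%, so the gap narrowed in replicates 2 and 3 and kept its direction. Pooled over the members, 567 uridylated tails had 1 U, 114 had 2 and 5 had 3. The stretches in all other mRNAs ran up to 27 Us, and without the 22 3′RACE-seq mRNAs up to 9, 10 and 13 Us in replicates 1, 2 and 3. The share with a single U was 76.3% in member tails of 10 to 15 As (71.0 to 80.9%) and 56.9% in those of all other mRNAs (56.2 to 57.6%). In tails of 16 to 25 As it was 87.5% (83.4 to 90.7%) in the members and 71.7% (71.0 to 72.4%) in all other mRNAs. All 49 uridylated member tails over 25 As had 1 U (92.7 to 100%), against 93.2% in all other mRNAs (92.2 to 94.0%). The intervals overlapped in this class.

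The tails with nothing added differed less. Their median length was 25, 22 and 22 As in the members, against 26, 23 and 22 As in all other mRNAs. The members had more oligo(A) tails, with 52.3%, 67.9% and 65.4% of plain tails at 10 to 25 As, against 46.4%, 59.6% and 59.2% in all other mRNAs. The mean difference of 6.79 ± 1.36 points (SD, n = 3) had the same sign in 3 of 3 libraries. At the same time plain tails under 10 As were fewer, with 0.799%, 0.826% and 1.18% in the members and 1.26%, 2.53% and 2.98% in all other mRNAs, or 1.27%, 1.77% and 2.09% in these without the 22 3′RACE-seq mRNAs. Tails over 50 As were fewer as well, with 6.03%, 0.699% and 0.715% in the members and 9.01%, 2.01% and 2.40% in all other mRNAs. The members' tails were thus gathered between 10 and 25 As, with a most frequent length of 19, 19 and 18 As. The longer tails of replicate 1 were seen in both sets, and replicate 1 was also the library of the other sequencing run.

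**Figure D2:**
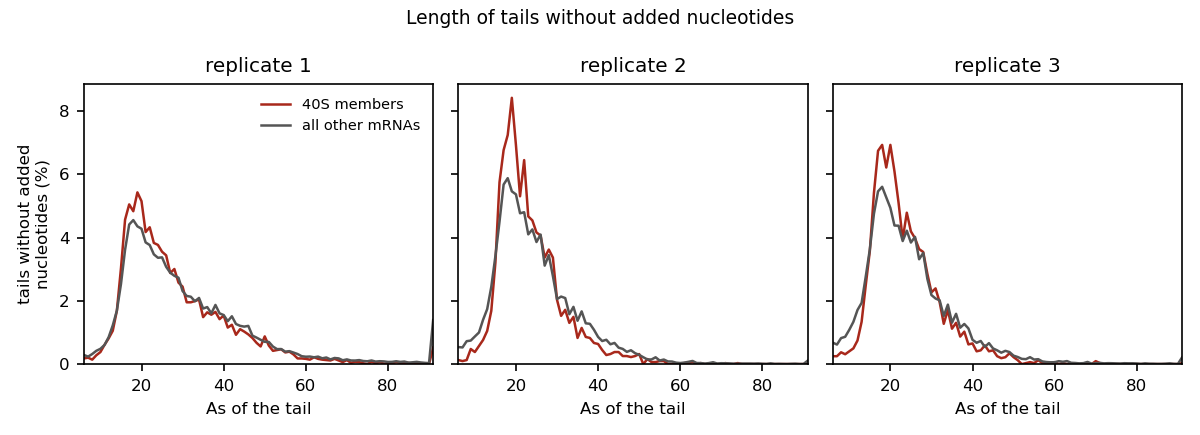
Distribution of the number of As (x axis) of tails without added nucleotides, as a percentage of such tails (y axis), in each replicate, for the 40S members (red) and all other mRNAs (grey). The peak at 16 to 21 As is taller in the members in each panel, and fewer member tails lie below 10 and above 50 As. Reads do not extend past 91 nucleotides, where the last point collects the longer tails.

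The mRNAs with at least 20 pooled reads were also tested singly, each against the rest of the reads, with the Cochran-Mantel-Haenszel test (library as stratum) and Benjamini-Hochberg adjustment over the 3439 mRNAs tested (threshold 0.05). Of the 53 members tested, 17 were called less uridylated, and 16 of these lay below the rest in 3 of 3 libraries. Over all mRNAs tested, 5.58% were called lower. No member was called higher, none had an unadjusted p under 0.05 in that direction, and the exact conditional and beta-binomial tests also called 0 members higher, while 9.54% of all mRNAs tested were called higher. The share of members called lower, 32.1%, was above the background, and the members also had more reads (median 159 among those tested, against 42 over all mRNAs tested). All 17 members called lower were among the 34 with at least 100 reads, and the 19 with fewer had no call. At 100 reads or more, the median uridylation was 3.84% over the 34 members, against 5.60% over all 728 such mRNAs, and 26 of the 34 members lay below that median. The number called depended on the library left out: 6 members were called lower without replicate 1, the deepest library (background 4.79%), 11 without replicate 3 (background 4.74%) and 14 without replicate 2 (background 4.94%).

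When the reads were also stratified by tail length, so that tails of like length were compared, 14 of the 53 members were called lower, and each of these 14 was below the rest in 3 of 3 libraries. The background was 4.10% called lower and 7.76% called higher, and no member was called higher. At an unadjusted p under 0.05, 25 members were lower and 0 higher at equal length. The share of all mRNAs at that p is not given, so these 2 counts cannot be set against a background. With a minimum of 50 reads, 14 of 48 members and 10.2% of 1474 mRNAs tested were called lower at equal length. The calls at equal length numbered 5 without replicate 1 (background 3.15%), 11 without replicate 2 (background 3.6%) and 10 without replicate 3 (background 3.49%). Of the members, 13 were called lower in both tests. Tail length was compared by a van Elteren test (a rank-sum test stratified by library) on tails without added nucleotides. Of 52 members tested, 10 were called shorter and 2 longer, with 6.43% of all mRNAs tested called shorter and 8.34% called longer. The direction was the same in 3 of 3 libraries for 8 of the 10 shorter calls and for both longer calls. The shorter calls numbered 5 without replicate 1 (background 4.77%), and the longer calls 1 without replicate 1 (background 8.01%) and 1 without replicate 3 (background 8.42%). limma on library medians, which takes the spread between libraries into account, called 0 of 45 members in either direction, with 0 shorter and 1 longer at an unadjusted p under 0.05, and called 0.666% of 1953 mRNAs shorter and 1.08% longer. The tests on reads treat each read as independent, and do not allow for spread between libraries.

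**Figure D3:**
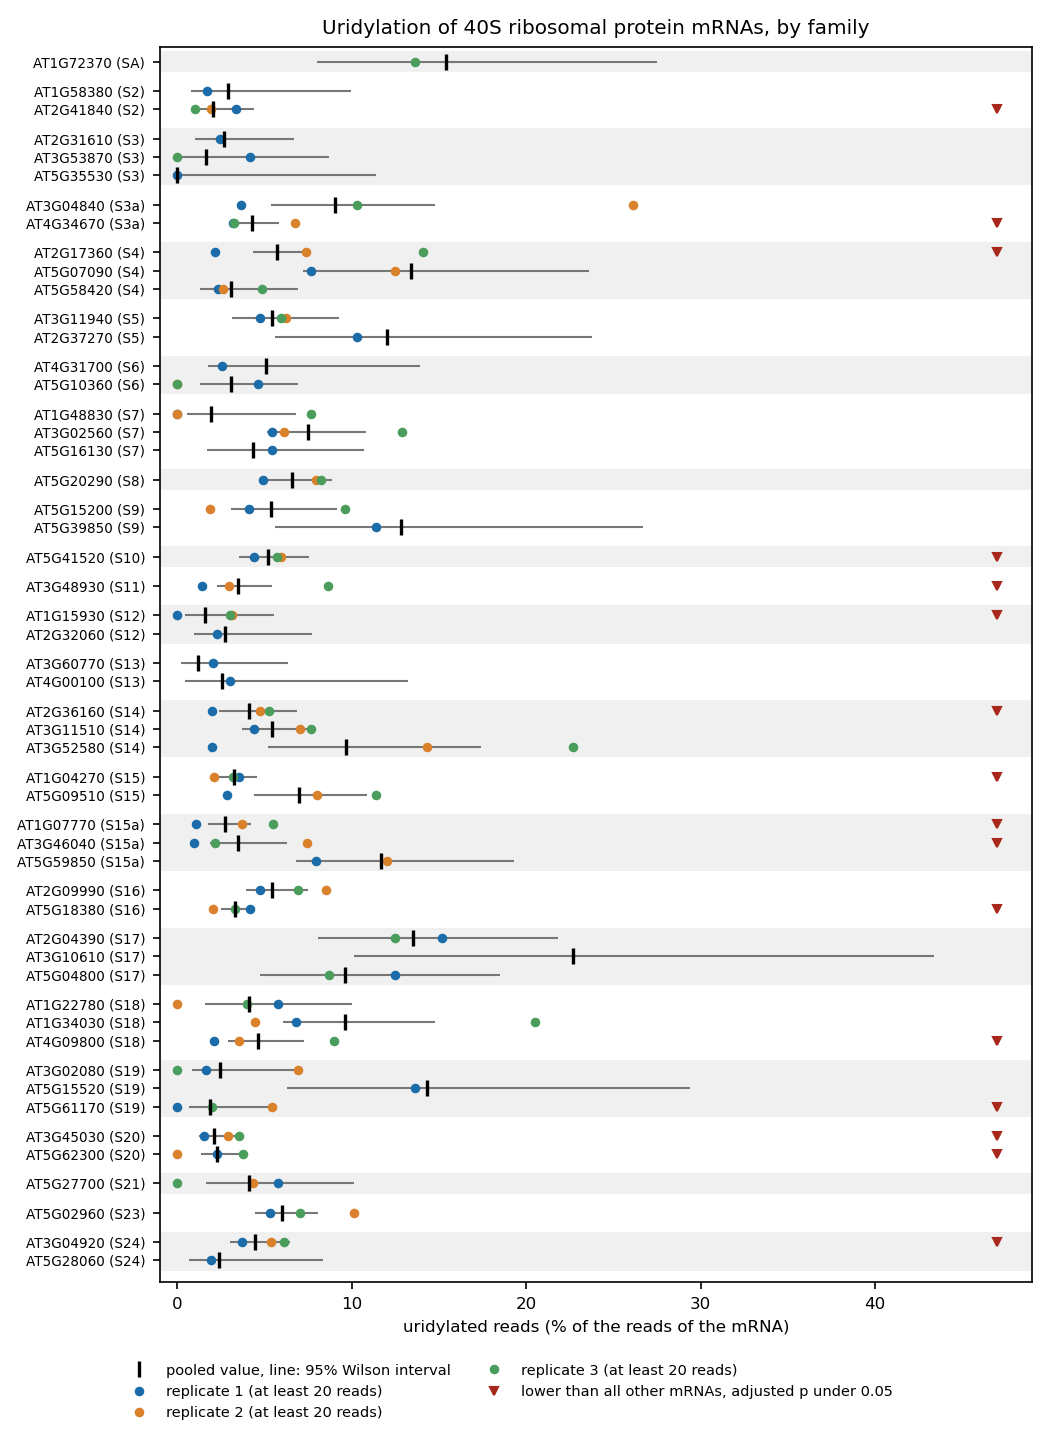
Percentage of uridylated reads (x axis) of 52 of the 53 members with at least 20 pooled reads, grouped by family (shaded bands). Black ticks are pooled values with 95% Wilson intervals as lines, coloured points are replicates with at least 20 reads, and red triangles mark 16 of the 17 members called lower than all other mRNAs. Pooled values span 0 to 22.7%, with the called members at the low end.

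RPS16 (AT5G18380; TAIR10.1 chromosome 5, 6089712 to 6090804), whose C-terminal tail reaches towards the tRNA in the P site, had the most reads of any member. It had 4.15%, 2.04% and 3.31% uridylated reads among 698, 489 and 362 reads in replicates 1, 2 and 3, all below the 7.56 to 11.8% of all other mRNAs. Its odds of uridylation were 0.338 times those of all other mRNAs, and 0.324 times at equal tail length (Cochran-Mantel-Haenszel, adjusted p = 1.72e-13 and 2.27e-13). Of its reads, 34.4% were also assigned to other genes, mainly its paralog, and 3.15% of the 1016 reads of its own were uridylated. RPS15 (AT1G04270; chromosome 1, 1141558 to 1143130), a head protein near the decoding site, had 3.51%, 2.08% and 3.21% uridylated reads among 683, 144 and 156, with an odds ratio of 0.368 (adjusted p = 3.02e-07). These percentages varied less between libraries than those of all other mRNAs did. S2 (AT2G41840), which lines the entry of the mRNA channel, had 3.37%, 1.94% and 1.00% among 89, 103 and 100 reads and an odds ratio of 0.196 (adjusted p = 2.44e-04). S23 (AT5G02960), which sits in the decoding centre itself, was closer to the rest. It had 5.29%, 10.1% and 7.06% among 529, 69 and 85 reads and was not called (odds ratio 0.722, adjusted p = 0.212).

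The 3 listed S3 genes, which encode another protein of the entry channel, had few reads. AT5G35530 had 0 uridylated reads of 30, which allows a share of up to 10%. AT3G53870 had 1 of 61 (1.64%) and AT2G31610 had 2.67% of 150, and none of the 3 was called.

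Proteins of the head supplied 6 of the other calls. Both listed S20 genes were among the least uridylated of the well-covered members. AT3G45030 had 1.52%, 2.88% and 3.51% among 396, 104 and 114 reads (odds ratio 0.230), and AT5G62300 had 2.30%, 0% and 3.77% among 522, 38 and 53 reads (odds ratio 0.274). Their adjusted p-values were 5.44e-07 and 1.09e-05. S12 (AT1G15930) had 2 uridylated reads in 128 (odds ratio 0.156, adjusted p = 0.0363), and S19 (AT5G61170), whose human counterpart is mutated in Diamond-Blackfan anaemia, had 3 in 159 (odds ratio 0.185, adjusted p = 0.0173). At equal tail length AT5G61170 was not called (odds ratio 0.263, adjusted p = 0.0891) and was below the rest in 2 of 3 libraries. RPS10B (AT5G41520) had 4.41%, 5.97% and 5.74% among 227, 134 and 122 reads (odds ratio 0.542), and RPS18C (AT4G09800) had 2.1%, 3.54% and 9.01% among 143, 113 and 111 reads (odds ratio 0.464). Both were called lower in the first test. At equal tail length neither was called, with odds ratios of 0.590 for RPS10B (adjusted p = 0.0897) and 0.578 for RPS18C (adjusted p = 0.224).

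Proteins of the body and platform gave the other 8 calls. RPS15A (AT1G07770; chromosome 1, 2407411 to 2409791) had 1.09%, 3.70% and 5.49% among 367, 162 and 164 reads and an odds ratio of 0.284 (adjusted p = 4.86e-07). Its percentages differed between libraries, and each was below that of all other mRNAs in its library. RPS15AD (AT3G46040) had 0.98%, 7.45% and 2.17% among 102, 94 and 92 reads (odds ratio 0.340). S3a (AT4G34670), a platform protein, had 3.17%, 6.72% and 3.26% among 315, 268 and 307 reads (odds ratio 0.420, adjusted p = 2.58e-06). EMB1080 (AT3G48930), an S11 gene, had 1.43%, 2.94% and 8.66% among 280, 136 and 127 reads (odds ratio 0.364, adjusted p = 1.87e-04). S14 (AT2G36160) and S24 (AT3G04920) were also called, at 4.08% and 4.44% pooled. S4 (AT2G17360) was the exception among the called members. It had 2.17%, 7.38% and 14.1% among 507, 149 and 185 reads, so that it lay above the 11.8% of all other mRNAs in replicate 3, and without replicate 1 its odds ratio was 1.02, against 0.629 with all libraries (adjusted p = 0.0195). A second S4 gene, AT5G58420, was called at equal tail length only (odds ratio 0.197, adjusted p = 0.00318), with 2.35%, 2.63% and 4.88% uridylated reads.

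At the low end without a call were S13 (AT3G60770) with 1 uridylated read of 85 (1.18%) and S7 (AT1G48830) with 2 of 103 (1.94%), with intervals reaching up to 6.37% and 6.81%.

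The most uridylated members were all shallow, and none was called. S17 (AT3G10610; chromosome 3, 3318975 to 3320187) had 5 uridylated reads of 22 (22.7%, interval 10.1 to 43.4%), with 2, 1 and 2 uridylated reads in replicates 1, 2 and 3. SA (AT1G72370), the homolog of the protein known in animals as laminin receptor, had 8 of 52 (15.4%, interval 8.01 to 27.5%), and S19 (AT5G15520) had 5 of 35 (14.3%, interval 6.26 to 29.4%). A second S17 gene (AT2G04390) stood at 13.5% of 96 reads, with 15.2%, 11.1% and 12.5% in the 3 libraries, the S4 gene AT5G07090 at 13.4% of 67, and the S9 gene AT5G39850 at 12.8% of 39. Their odds ratios lay between 1.51 and 3.03, and their intervals reached down to 5.60 to 10.1%. Of the 8 members at 10% or more, 7 had fewer than 100 reads. The other 45 of the 53 comprised 30 below 5% and 15 from 5 to 10%.

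The paralogs of a family were compared next, since they encode nearly the same protein from different loci. In 20 of the 25 families at least 2 paralogs had 20 reads. The range of pooled uridylation within a family had a median of 4.23 points and reached 13.1 points in S17. The same order in 3 of 3 libraries was seen for the most and least uridylated paralogs of 7 families. For 3 families (S4, S15a and S19) their Wilson intervals, which cover counting error only, did not overlap. These pairs are the extremes of the same pooled reads, so such orders and gaps can arise by chance. How often they arise by chance, or in families of other mRNAs, was not tested. No test over families was made.

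In S4, AT5G07090 had 7.69%, 12.5% and 23.5% uridylated reads in replicates 1, 2 and 3, against 2.35%, 2.63% and 4.88% in AT5G58420. The order was the same in the 3 libraries, on 26, 24 and 17 reads of the more uridylated gene. In S15a, AT5G59850 had 7.94%, 12% and 26.7% among 63, 25 and 15 reads, against 1.09%, 3.70% and 5.49% in RPS15A. Here, too, the order held in 3 of 3 libraries. In S19, AT5G15520 had 13.6%, 0% and 22.2% among only 22, 4 and 9 reads, against 0%, 5.41% and 1.96% in AT5G61170, and the order turned in replicate 2. In S9, AT5G39850 had 12.8% and AT5G15200 5.36%, with overlapping intervals.

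S17, the family of the widest range, was the only one of the 20 with every compared paralog above 9%. AT3G10610 stood at 22.7%, AT2G04390 at 13.5% and AT5G04800 at 9.59% (73 reads). AT2G04390 and AT5G04800 share 25% and 8.22% of their reads with other genes, and on reads of their own they stood at 11.1% of 72 and 5.97% of 67. S16 was affected most by shared reads. AT2G09990 had 5.44% of 625 reads, but 85.0% of these were also assigned elsewhere, and of its own 94 reads 16.0% were uridylated (interval 9.92 to 24.7%), against 3.15% (interval 2.24 to 4.41%) of the own reads of AT5G18380. The levels of these paralogs are therefore uncertain. The same holds for the S2 gene AT1G58380, with 58.0% of its 69 reads shared.

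The read numbers of paralogs were uneven. In S24, AT3G04920 held 87.2% of the reads of the listed genes of the family. The 2 listed S20 genes had 614 and 613 reads and 2.12% and 2.28% uridylated reads pooled, although their reads were split differently over the libraries. In S5, RPS5A (AT3G11940), the copy known for its activity in dividing cells, had 221 reads and 4.72%, 6.25% and 5.97% uridylated, while RPS5B (AT2G37270) had 50 reads and 12% pooled. Their intervals overlapped.

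**Figure D4:**
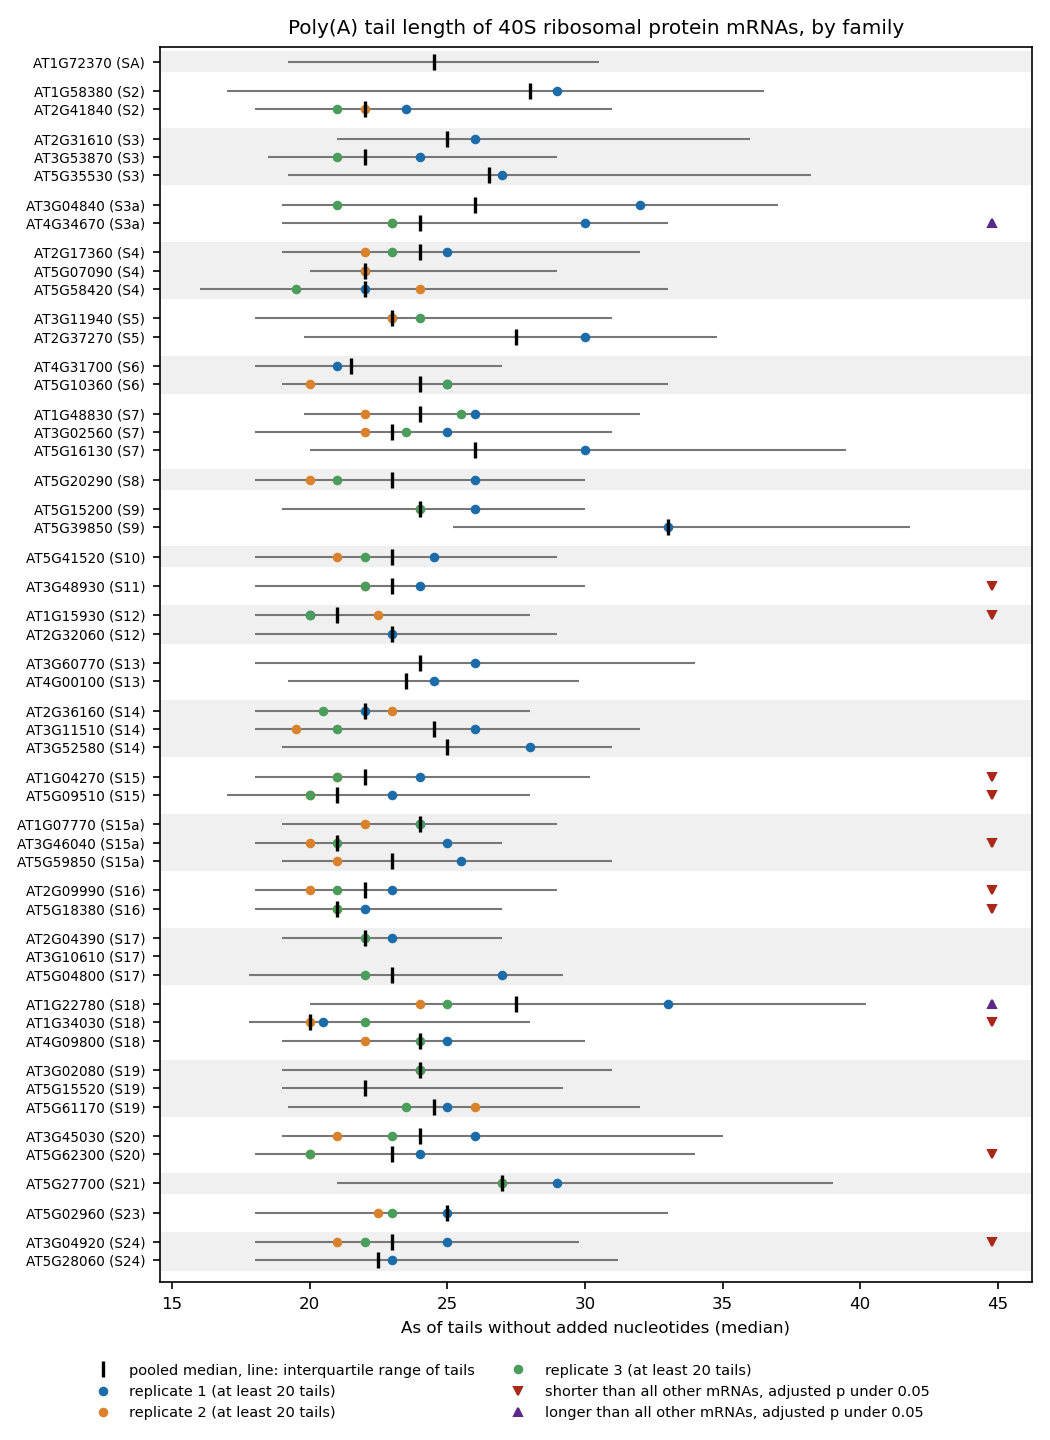
Number of As of tails without added nucleotides (x axis) for the members of the plot of uridylation by family. Black ticks are pooled medians with the interquartile range of tails as a line (members with at least 20 such tails), coloured points are replicate medians from at least 20 tails, and triangles mark members called shorter (red) or longer (purple) than all other mRNAs. Most pooled medians lie between 21 and 25 As, with AT5G39850 at 33 As and AT1G34030 at 20 As.

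Tail length varied little among the members. Of the 52 with at least 20 plain tails, 43 had a median between 21 and 25 As, and the median over members was 23 As (interquartile range 22 to 24.5), against 24.5 As (23 to 26.5) over all mRNAs tested. RPS16 (AT5G18380) had the smallest p, with medians of 22, 21 and 21 As in replicates 1, 2 and 3, against 26, 23 and 22 As in all other mRNAs. A tail of it ranked on average at the 0.428 point of all tails, where 0.5 is the middle (van Elteren test, adjusted p = 1.08e-19). Its paralog AT2G09990 gave 0.425 on mostly shared reads, and was not called on its own reads. RPS15 had medians of 24, 21 and 21 As (rank 0.448, adjusted p = 5.69e-07), and the other listed S15 gene, AT5G09510, 23, 20 and 20 As (rank 0.426, adjusted p = 0.00149). RPS15AD, at 25, 20 and 21 As, and the S20 gene AT5G62300, at 24, 20 and 20 As, were likewise below the library medians. S24 (AT3G04920), EMB1080 and S12 (AT1G15930) were called shorter with ranks of 0.453, 0.465 and 0.425, EMB1080 only narrowly (adjusted p = 0.0389). AT1G15930 ranked below the middle in 2 of 3 libraries. Thus the differences amounted to a few As in each case.

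Long tails were few. PFL (AT1G22780; chromosome 1, 8067864 to 8069356), an S18 gene whose mutants form pointed first leaves, had medians of 33, 24 and 25 As, above the rest in 3 of 3 libraries (rank 0.601, adjusted p = 0.00832, 92 tails). The S18 gene AT1G34030 was at the other end with 20.5, 20 and 22 As (rank 0.420, adjusted p = 0.00483), and RPS18C between them with 25, 22 and 24 As. AT1G34030 ranked below the middle in 2 of 3 libraries. This order of PFL over AT1G34030 was the same in 3 of 3 libraries, on 177 reads of AT1G34030 and 98 of PFL. S3a (AT4G34670) was also called longer, with 30, 23 and 23 As (rank 0.535, adjusted p = 0.0048), most of it in replicate 1. AT5G39850 (S9) had the highest median, 33 As over 34 tails, nearly all from replicate 1, against 24 As in its paralog AT5G15200. S21 (AT5G27700) had 29, 27 and 27 As, higher in each library than the rest, and missed the threshold (adjusted p = 0.0544). The shallow genes AT1G58380 (S2), RPS5B and AT5G35530 (S3) had medians of 28, 27.5 and 26.5 As, also mostly from replicate 1. RPS6 (AT4G31700), the substrate of S6 kinase, had 21.5 As. Within families the medians spanned a median of 2.25 As and at most 9, widest in S9, S18, S2, S3 and S5. The order was the same in 3 of 3 libraries in 4 families. Here, too, the pairs were picked as extremes of the same pooled reads, and the chance level was not tested.

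How far the members' values repeat between libraries sets what can be read from them. Among members with at least 20 reads in both libraries of a pair, Spearman's rho of the uridylation percentages was 0.221 (replicates 1 and 2, 36 members), 0.221 (1 and 3, 37 members) and 0.371 (2 and 3, 34 members). The ranking of the members by uridylation thus repeated weakly. The SD of the percentages among members was 3.41, 4.94 and 5.29 points, against 2.20, 3.15 and 3.39 points from counting alone. These correlations are across genes of the same libraries and are descriptions.

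The 40S mRNAs also share features of their genes. The 59 genes are spread over the 5 chromosomes, with 22 on chromosome 5 and 6 on chromosome 4. The longest annotated mRNA has a median of 1008 nucleotides (661 to 1653), against 1449 for the 3374 other mRNAs with at least 20 reads and a gene model. The 3′ untranslated region, to which the tail is joined, has a median of 303 nucleotides, against 295 in the others. The 250 bases before the annotated start hold the telo box, searched as AAACCCTA on both strands, in 18.6% of the members (11 genes) and in 4.24% of the others. A site II element, searched as TGGGCC on both strands, is in 57.6% of the members (34 genes) and in 20.9% of the others. Both elements are known from promoters of plant ribosomal protein genes. Members with site II had a median uridylation of 4.08% (33 genes with at least 20 reads), and those without 5.02% (20 genes). Within the members, Spearman's rho of uridylation was −0.147 with 3′ untranslated region length, −0.137 with read number and 0.00121 with the median number of As. The members share libraries and the shallow ones have large counting error, so these are descriptions.

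The low uridylation was shared with the rest of the ribosome. Of 26 other 40S genes tested, 6 were called lower and 0 higher, and of 99 genes of the large (60S) subunit 27 were called lower and 0 higher. The background was 5.58% called lower and 9.54% called higher. Uridylation was 3.53%, 5.10% and 6.52% in the 40S members, 3.79%, 5.01% and 7.26% in the other 40S genes and 3.51%, 6.07% and 7.04% in the 60S genes. The ribosomal sets thus lay close to each other in each library, and below the 7.56%, 10.1% and 11.8% of the mRNAs other than the members. The share with a single U was 82.4%, 80% and 85.0% in the 40S members, 79.3%, 72.1% and 76.6% in the other 40S genes and 83.6%, 86.2% and 77.3% in the 60S genes. Shorter tails were called for 10 of 52 members, 7 of 25 other 40S genes and 9 of 98 60S genes. These shares were 19.2%, 28% and 9.18%, against 6.43% of all mRNAs tested, so that of the 60S genes lay near the background. The direction was the same in 3 of 3 libraries for 8, 5 and 5 of these genes. Longer tails were called for 2, 0 and 5 genes, against 8.34% of all mRNAs tested. Of plain tails, 52.3%, 67.9% and 65.4% had 10 to 25 As in the members. The shares were 53.7%, 63.7% and 64.6% in the other 40S genes and 49.4%, 64.9% and 63.3% in the 60S genes. The 46.4%, 59.6% and 59.2% of the mRNAs other than the members were lower in each library.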

How the data were processed

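TAIL-seq reads of 3 wild-type flower libraries were used. The authors removed duplicate read pairs, aligned read 1 to TAIR10 (HISAT2 2.1.0, Bowtie2), assigned it to genes (bedtools 2.17.5, per the submitters' processing notes) and extracted the tail from read 2. The deposited values are lengths in nucleotides per tail and read, with the class of the added nucleotide; they are not normalised, and tails of at least 6 As are listed, up to 91 nucleotides. Repeated rows of 1 read and gene were counted once. A read that the authors gave to several genes was counted for each in values of single genes and in the number of read assignments, and once in values of a set of genes (library percentages, length classes, tails and numbers of Us). Gene models and symbols came from RefSeq's TAIR10.1; the deposited table holds no coordinates.

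Uridylation of each mRNA with at least 20 pooled reads was compared with all other mRNAs by two-sided Cochran-Mantel-Haenszel tests stratified by library, or by library and 8 classes of tail length. Plain tails were compared by a two-sided van Elteren test. p-values were adjusted by Benjamini-Hochberg over all mRNAs tested. The tests were checked on simulated data, in which the test by library found far fewer of the lowered than of the raised mRNAs. Python 3.11.15, pandas 2.3.3, SciPy 1.17.1, R 4.3.3 and limma 3.58.1 were used. Intervals are 95% Wilson intervals and an upper limit for 0 reads is 3 counts of the total; both cover counting error only. Libraries held 106777 to 222681 reads.

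The rule for the members uses function alone, and it and the gene lists were chosen with earlier results of these data known. Named are members past any test, the 6 with most reads, the 6 at each end of uridylation and of tail length, and the 5 families with the widest range of each, except 1 called member that is not reported here; a few others (AT2G31610, the least uridylated S15a and S9 paralogs, RPS5A, AT5G04800) are named as members of these families. Alternatives were other minima of reads (10, 50), at least 2 added Us, shared reads left out, each library left out, other tests, other definitions of tail length and the 22 3′RACE-seq mRNAs left out.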

Additional observations from a re-analysis of the deposited data

How the results depend on the processing

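No paired analysis was possible because the 3 libraries form 1 group, so no 2 groups of samples share replicate numbers; members and all other mRNAs were compared within each library. Over 402 recomputed values of called members, 317 kept direction and call, 84 kept direction and lost the call, and 1 turned: S4 (AT2G17360) had a uridylation odds ratio of 1.02 without replicate 1, in a range of 0.401 to 1.02 over the libraries left out. Members called less uridylated numbered 17, and 6 to 14 with 1 library left out, 11 with at least 2 added Us (2.73% of all mRNAs tested), 21 by the exact conditional test (6.98%) and 23 by a beta-binomial test (9.01%), whose estimated overdispersion was 0.0001; at equal tail length they numbered 14, 5 to 11 with 1 library left out and 6 with at least 2 added Us (1.77%). With a minimum of 50 reads, 17 members and 14.1% of all mRNAs tested were called lower. Members called shorter numbered 10, 5 to 11 with 1 library left out, 6 on As plus added nucleotides of all tails and 0 by limma; members called longer numbered 2, 1 to 2 with 1 library left out and 0 by limma, which tested 1953 mRNAs. The causes were not tested. Counting at least 2 added Us, uridylation of the members was 0.874% and the difference from all other mRNAs −2.69 points. Weighting members equally within each library, also those with few reads there, gave 6.78% and a difference in median As of −1.56, against −0.667 over reads. Leaving out the 3′RACE-seq mRNAs, chosen after seeing the data for this value, gave a difference of −5.46 points and a read share of 4.04%. No member was called more uridylated under any alternative run. Without shared reads the median range within families was 5.18 points, against 4.23. No member with fewer than 100 reads was called less or more uridylated. Leaving replicate 1 out of single length classes was chosen after seeing the data.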
